A study of Saccharomyces cerevisiae with 12 samples.

Results

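The effect of losing SAN1 on the yeast transcriptome was compared between 2 growth media, as the san1 effect in YC minus the san1 effect in YEPD. All 12 arrays of the series enter this difference, 6 from cells grown in YC and 6 from cells grown in YEPD, and nothing measured on them chose the arrays. Every array held total RNA of san1 mutant cells and of SAN1 cells of Saccharomyces cerevisiae grown in the same medium, labelled in different channels. In each medium the mutant's RNA was in channel 2 on arrays 1 to 3 and in channel 1 on arrays 4 to 6. YEPD is a rich medium of yeast extract, peptone and glucose, whereas the labels do not spell out YC. The labels name no kind of san1 allele, strain background or growth stage, and do not say whether the arrays of a medium came from separate cultures. The free-text descriptions of YC arrays 1 to 3 name YEPD, but their titles and both source names say YC, which was followed.

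San1 is a ubiquitin ligase of the nucleus. It recognises misfolded nuclear proteins and marks them, with the conjugating enzymes Cdc34 and Ubc1, for destruction by the proteasome. In yeast, high-affinity copper uptake rests on reductases at the cell surface and on the Ctr transporters, whose genes are switched on by the factor Mac1 when copper is scarce. General stress genes answer to the factors Msn2 and Msn4, and chaperone genes to Hsf1.

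Each value below is a log2 ratio of san1 over SAN1, so a positive value means more RNA in the mutant. Each difference is the fitted mean of the YC arrays minus the fitted mean of the YEPD arrays on that scale. The fit allowed for the channel of the mutant's RNA, so with empty cells a fitted mean can depart from the plain mean. The base of the logarithm is not stated, and base 2 was assumed. Were the values natural logarithms, all folds would be larger, and 29 genes in place of 8 would pass the 1.5-fold limit used below. The direction was read from the SAN1 row, which was far below 0 on all 12 arrays once turned. Each array sets the 2 strains against each other within a medium, so no array measured a gene's level in YC against its level in YEPD, and a ratio can move through either strain.

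SAN1 itself showed no difference between media beyond the spread. It stood at -4.57, -4.57, -3.79, -3.52, -3.31 and -2.69 on YC arrays 1 to 6, against -3.91, -3.67, -3.94, -3.39, -3.87 and -3.89 on YEPD arrays 1 to 6. The media overlapped, and the YC arrays were the more scattered. The difference was 0.03 (SE 0.22, limma adjusted p = 0.94, 95% interval -0.43 to 0.50).

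The arrays held 5836 to 6180 log ratios each, with SDs of 0.161 to 0.206. Of 6177 genes, 5890 had at least 2 values in each orientation of each medium and were tested. Across genes, and without SAN1, YC arrays of opposite orientation correlated at -0.03 to 0.65 after turning, and YEPD arrays of opposite orientation at -0.50 to -0.17. Same-orientation arrays correlated at 0.09 to 0.47 in YC and at 0.49 to 0.86 in YEPD. YEPD arrays were thus alike within an orientation and ran against each other between orientations, and YC arrays did not show this. The fit held 1 dye term common to both media, which was called for 966 genes (16.4%). Within YC, arrays 1 and 4 and arrays 2 and 5 deviated together from their means (r across genes 0.37 and 0.56), whereas arrays 3 and 6 did not (-0.24). In YEPD the same pairs stood at 0.42, 0.27 and 0.05. YEPD arrays 4 and 6 lay closest to each other (SD of their difference 0.106, against 0.155 to 0.247 for the other same-orientation pairs of a medium), with 0 equal values, and were kept as separate arrays.

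The san1 effect differed between YC and YEPD for 576 of 5890 genes at an adjusted p under 0.05 in limma (9.78%). It was higher in YC for 324 (5.5%) and lower in YC for 252 (4.28%), with a median size of 0.23 among the 576, against 0.09 over all genes. For 235 genes the YC arrays and the YEPD arrays did not overlap (3.99%), with YC above for 125 and below for 110, and 205 of these were among the 576. A difference of at least 1.5-fold was found for 8 called genes. HSP12, HSP26, RTC3 and STF2 were higher in YC, and FRE7, YPR123C, CTR1 and FRE1 were lower in YC. The labels do not say that the arrays are separate cultures, so these p-values measure the spread between arrays, which may be technical.

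Most of the 576 calls were lost when arrays were averaged in pairs, but 359 held with the same pairs as a random block. The pairs were arrays 1 and 4, 2 and 5, and 3 and 6 of each medium. Averaging would be right for pairs made from a single extract of each strain with swapped dyes. It left 1385 genes at an unadjusted p under 0.05 in limma, against 1703 of 5890 without averaging. Of 5831 genes, 3 stayed called, all lower in YC. The 3 were FRE7, FRE1 and CTR1. Leaving out a single array left 169 calls (without YEPD array 4) to 800 calls (without YC array 1), and 157 genes were called whichever array was left out, 100 of them higher and 57 lower in YC.

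Few of the genes called for the difference were also called within both media. A missing call in a medium does not show that a gene was unchanged there. Of the 324 that were higher in YC, 302 rose in san1 cells in YC and were not called in YEPD, 4 rose in both, 16 were called in neither, 1 fell in YEPD with no call in YC, and 1, POP7, rose in YC and fell in YEPD. Of the 252 that were lower in YC, 208 fell in YC and were not called in YEPD, 16 rose in YEPD and were not called in YC, 23 were called in neither and 1, PHD1, fell in both. The other 4 fell in YC and rose in YEPD, and these were FRE7, CTR1, FRE1 and AAP1. A call in one medium and none in the other is not itself a difference, but each of these genes passed the test of the difference.

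**Figure D1:**
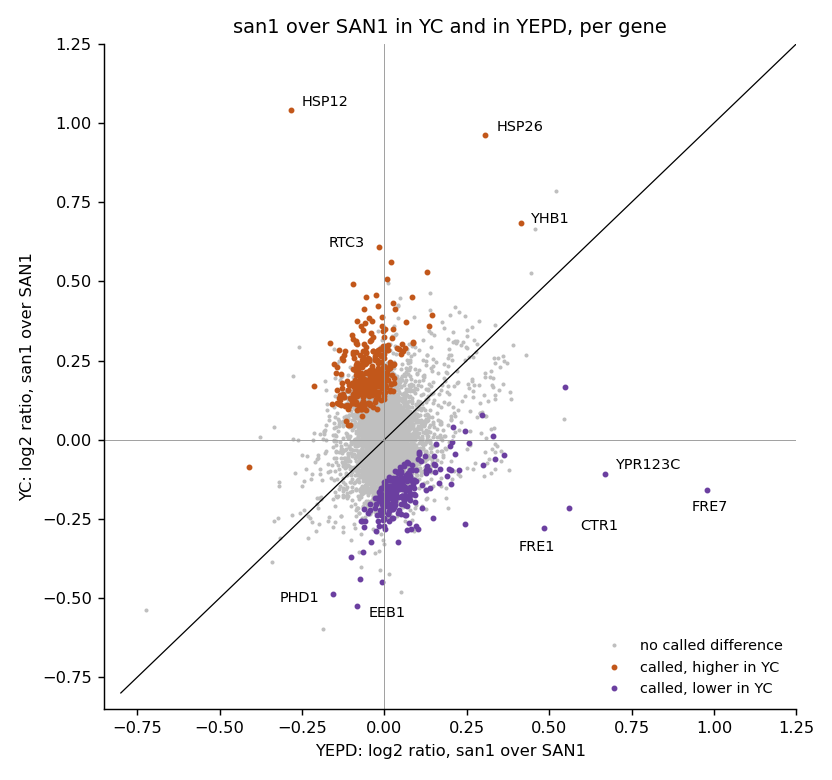
Each point is a gene other than SAN1, with its fitted log2 ratio of san1 over SAN1 in YC (vertical axis) against that in YEPD (horizontal axis); the diagonal marks equal effects. Genes called higher in YC (324) lie mostly above 0 in YC and near 0 in YEPD, while FRE7, YPR123C, CTR1 and FRE1 stand far to the right of 0 in YEPD and below 0 in YC.

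Copper uptake genes gave the largest differences downward. FRE7, encoding a surface reductase induced by copper shortage, stood at -0.11, -0.32, -0.17, -0.12 and -0.092 on YC arrays 1, 2, 3, 5 and 6, against 0.97, 0.88, 1.10, 0.98, 0.87 and 1.06 on YEPD arrays 1 to 6. Every YC array lay below 0 and every YEPD array above 0.87. The difference was -1.14 (SE 0.059, adjusted p = 1.6e-06), a 2.20-fold lower ratio in YC.

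CTR1 encodes the high-affinity copper transporter of the plasma membrane. It stood at -0.22, -0.15, -0.17, -0.15 and -0.32 on YC arrays 1, 3, 4, 5 and 6, against 0.40, 0.49, 0.39, 0.65, 0.60 and 0.83 on YEPD arrays 1 to 6. The 2 media were again apart, with opposite signs on all measured arrays. Its difference was -0.78 (SE 0.068, adjusted p = 0.0002). YPR123C is a reading frame that by its systematic name lies beside CTR1 on the other strand, and the labels give no probe strand, so the RNA of these neighbours cannot be told apart. It stood at 0.20, -0.18, -0.32, -0.15 and -0.14 on YC arrays 2 to 6, against 0.59, 0.57, 0.84, 0.63, 0.67 and 0.70 on YEPD arrays 1 to 6. Only YC array 2 was above 0 in YC, and it stayed below all YEPD arrays. The difference was -0.78 (SE 0.08, adjusted p = 0.00089), and it missed the threshold when arrays were averaged in pairs (adjusted p = 0.053).

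FRE1 encodes the main surface reductase for iron and copper. Its values were -0.42, -0.19, -0.20, -0.47, -0.14 and -0.24 on YC arrays 1 to 6, against 0.39, 0.44, 0.48, 0.48, 0.52 and 0.59 on YEPD arrays 1 to 6. The groups were separated by more than 0.5 units. The difference was -0.76 (SE 0.062, adjusted p = 5.2e-05). With arrays averaged in pairs, the adjusted p was 0.0057 for FRE7, 0.007 for CTR1 and 0.016 for FRE1.

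Of the 6 genes on the list of Mac1 targets, 4 were lower in YC, 0 higher and 2 were not called, with a median difference of -0.58 against -0.01 over all genes. The list's median lay between -0.27 and -0.041 on the YC arrays and between 0.38 and 0.51 on the YEPD arrays. The fourth called member was IRC7, encoding a beta-lyase of sulfur compounds. Its values were -0.31, 0.07, -0.13, -0.024, 0.13 and -0.09 on YC arrays 1 to 6, against 0.26, 0.20, 0.36, 0.38, 0.38 and 0.42 on YEPD arrays 1 to 6. The media did not overlap, although YC had no common sign. The difference was -0.40 (SE 0.062, adjusted p = 0.0053). REE1 had a difference of -0.30 (SE 0.1, adjusted p = 0.069) and CTR3, a second copper transporter gene, one of -0.16 (SE 0.078, adjusted p = 0.2), and the media overlapped for both.

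**Figure D2:**
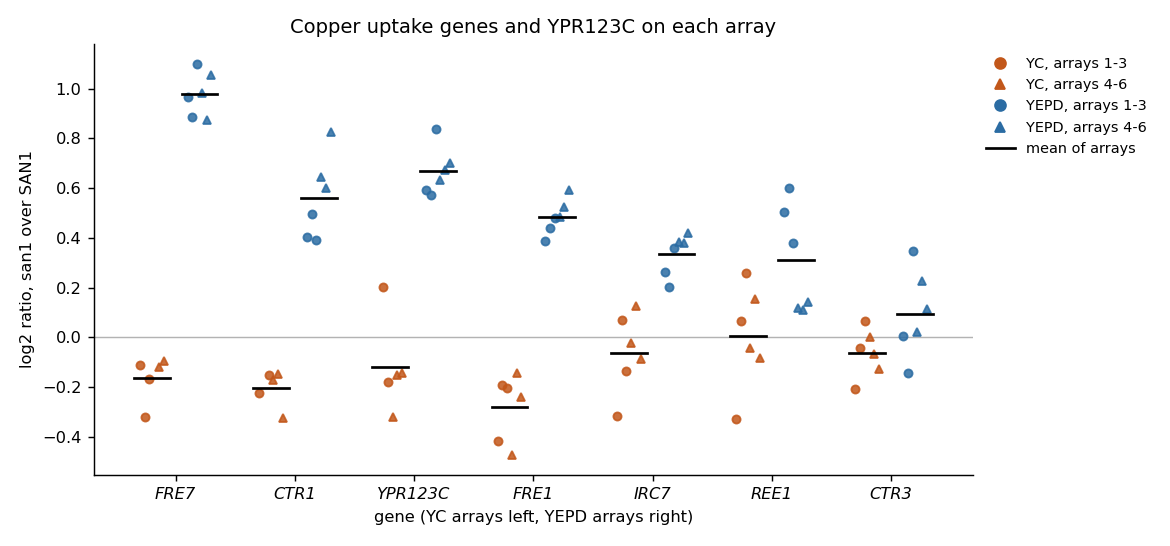
Log2 ratio of san1 over SAN1 (vertical axis) on each array for the 6 listed Mac1 targets and YPR123C, with YC arrays left and YEPD arrays right of each gene name, arrays 1 to 3 as circles, arrays 4 to 6 as triangles and the mean of the arrays as a bar. FRE7, CTR1, YPR123C, FRE1 and IRC7 show no overlap between media, REE1 and CTR3 do.

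Genes that bind or sense copper inside the cell did not follow the uptake genes. Of 9, COX17, the copper chaperone of cytochrome oxidase assembly, was higher in YC (difference 0.38, SE 0.066, adjusted p = 0.0076) and 8 were not called. COX17 stood at 0.054, 0.13, 0.38, 0.44, 0.38 and 0.17 on YC arrays 1 to 6, against -0.26, -0.20, -0.13, -0.14, 0.07 and -0.10 on YEPD arrays 1 to 6, so the media overlapped through YC array 1 and YEPD array 5. The metallothionein copies CUP1-1 and CUP1-2, which an array cannot be taken to tell apart, had differences of 0.16 (adjusted p = 0.52) and 0.17 (adjusted p = 0.19). MAC1 itself stood at -0.01 in YC and 0.02 in YEPD (difference -0.03, adjusted p = 0.72).

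A minority of the iron and zinc genes was lower in YC. Of 22 iron regulon genes, 4 were lower in YC (18.2%, beside 9.78% called over all genes), 0 higher and 18 were not called, with a median difference of -0.16. Of these 4, SMF3 and ISU1 lost the call with arrays n and n plus 3 as a random block (adjusted p = 0.059 and 0.06). FRE4, a siderophore reductase gene, stood at -0.15, -0.07, -0.20, -0.009, 0.05 and -0.09 on YC arrays 1 to 6, against 0.41, 0.14, 0.32, 0.38, 0.26 and 0.29 on YEPD arrays 1 to 6. All YEPD arrays lay above all YC arrays (difference -0.38, SE 0.053, adjusted p = 0.0034), with a call in YEPD (0.30, adjusted p = 0.00064) and none in YC (-0.08, adjusted p = 0.14). The others had differences of -0.19 (SMF3, a vacuolar iron transporter gene), -0.17 (VHT1, the biotin transporter gene) and -0.16 (ISU1, a scaffold for iron-sulfur clusters), with adjusted p values of 0.046, 0.029 and 0.045. Across the list, the median was -0.34 and -0.38 on YC arrays 1 and 4, -0.017 and -0.063 on arrays 2 and 5, and -0.17 and -0.14 on arrays 3 and 6, against -0.065 to 0.019 on the YEPD arrays. The size of the iron list's shift in YC thus followed the array pairs.

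Of 14 zinc response genes, 3 were lower in YC, 0 higher and 11 were not called (21.4% called), with a median difference of -0.16. With arrays n and n plus 3 as a random block, all 3 missed the threshold (adjusted p = 0.061 for FET4, 0.053 for ZAP1 and 0.066 for ZRC1). The 3 were FET4, a low-affinity transporter of iron, zinc and copper (-0.38, SE 0.11, adjusted p = 0.049), ZAP1, the zinc-sensing factor (-0.27, SE 0.074, adjusted p = 0.038), and ZRC1, a vacuolar zinc transporter gene (-0.20, SE 0.057, adjusted p = 0.0495). The list's median lay between -0.39 and -0.13 on the YC arrays and between -0.072 and 0.032 on the YEPD arrays. FET4 stood at -0.70, -0.012, -0.12, -0.60, -0.085 and -0.17 on YC arrays 1 to 6, so most of its mean came from arrays 1 and 4.

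Of 22 phosphate response genes, 6 were lower in YC, 1 higher and 15 were not called, the transporter genes PHO91 (-0.11, adjusted p = 0.17) and GIT1 (-0.21, adjusted p = 0.22) among the last. The list had a median difference of -0.15. PHO89, a sodium-coupled phosphate transporter gene, stood at -0.39, -0.43, -0.38, -0.53, -0.50 and -0.46 on YC arrays 1 to 6, against 0.24, -0.04, -0.02, 0.11, -0.21 and -0.11 on YEPD arrays 1 to 6. The YC arrays lay within a narrow band below all YEPD arrays (difference -0.44, SE 0.061, adjusted p = 0.0034). The transporter genes PHO90 (-0.24, adjusted p = 0.0086), PHO84 (-0.25, adjusted p = 0.041) and PHO87 (-0.16, adjusted p = 0.027) were lower as well. So were the acid phosphatase genes PHO11 (-0.36, adjusted p = 0.026) and PHO12 (-0.36, adjusted p = 0.02), which are close copies and may hybridize to either probe.

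The gene called higher was PHM8, encoding a phosphatase of nucleotides and lysophosphatidic acid. It stood at 0.30, 0.47, 0.24, 0.35, 0.52 and 0.29 on YC arrays 1 to 6, against -0.015, -0.0029, -0.16, -0.019, -0.087 and -0.15 on YEPD arrays 1 to 6. The media were apart in the direction opposite to PHO89 (difference 0.43, SE 0.056, adjusted p = 0.0026).

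Part of the methionine and sulfur genes and of the amino acid permease genes was lower in YC. Of 31 methionine, cysteine and sulfate genes, 9 were lower, 0 higher and 22 were not called, and the list's median ran from -0.15 to -0.07 on the YC arrays, against -0.028 to 0.0495 on the YEPD arrays. Among the 9 were 3 permease genes, MMP1 for S-methylmethionine (-0.36, SE 0.065, adjusted p = 0.0088), SAM3 for S-adenosylmethionine (-0.29, SE 0.051, adjusted p = 0.0083) and MUP1 for methionine (-0.27, SE 0.048, adjusted p = 0.0087). MUP1 stood at -0.47, -0.29, -0.30, -0.49, -0.29 and -0.39 on YC arrays 1 to 6, against -0.012, -0.12, -0.08, -0.07, -0.16 and -0.15 on YEPD arrays 1 to 6, without overlap. The sulfite reductase genes MET5 (-0.22) and MET10 (-0.24), the sulfate permease gene SUL1 (-0.18) and CYS3 (-0.19), for cysteine synthesis, were called too, with adjusted p values of 0.026, 0.039, 0.046 and 0.029.

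Of 15 amino acid permease genes, 5 were lower, 0 higher and 10 were not called. The sign was negative for 15 of 15, beside 3098 of 5890 over all genes. Signs of 1 kind also occurred in other lists, with 12 of 12 COS family genes negative and 7 of 7 Y' helicase genes positive. TAT1, a permease for branched-chain and aromatic amino acids, stood at -0.32, -0.27, -0.17, -0.28, -0.27 and -0.33 on YC arrays 1 to 6, against -0.03, -0.09, 0.07, -0.02, -0.07 and 0.04 on YEPD arrays 1 to 6. The media did not overlap (difference -0.26, SE 0.042, adjusted p = 0.0069). The other 4 were BAP3 (-0.22), the arginine permease gene CAN1 (-0.20), the glutamine permease gene GNP1 (-0.19) and the lysine permease gene LYP1 (-0.18), with adjusted p values of 0.026 to 0.046. The 5 listed genes of the plasma membrane amino acid sensor gave 0 calls in limma, with 1 at an unadjusted p under 0.05. Amino acid synthesis genes outside the sulfur pathways had 2 higher, 2 lower and 52 not called of 56.

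Further genes lower in YC had other roles. EEB1, an ethyl ester synthase gene, stood at -0.72, -0.40, -0.54, -0.55, -0.34 and -0.60 on YC arrays 1 to 6, against -0.07, 0.014, -0.11, -0.15, -0.03 and -0.15 on YEPD arrays 1 to 6. All YC arrays were below all YEPD arrays (difference -0.44, SE 0.063, adjusted p = 0.0034). Of 29 fatty acid, phospholipid and sphingolipid genes, EEB1 and the sphingolipid genes AUR1 (-0.22, adjusted p = 0.016) and LCB2 (-0.18, adjusted p = 0.02) were lower, 0 were higher and 26 were not called. ARR3, an arsenite exporter gene, was at -0.05 in YC and 0.36 in YEPD, with a difference of -0.41 (SE 0.064, adjusted p = 0.006) and a call in YEPD only. PHD1, encoding a factor of filamentous growth, fell in both media, to -0.49 in YC and -0.15 in YEPD (difference -0.33, SE 0.05, adjusted p = 0.0042). Of 4 genes next to SAN1, MKC7, a surface protease gene, was lower in YC (-0.28, SE 0.058, adjusted p = 0.015). DOP1 (-0.17, adjusted p = 0.086), PEX7 (-0.07, adjusted p = 0.31) and TAF12 (-0.01, adjusted p = 0.98) were not called.

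Stress genes gave the largest differences upward. HSP12, encoding a small protein that protects membranes under stress, stood at 0.92, 1.13, 0.72, 1.39, 1.20 and 0.89 on YC arrays 1 to 6, against -0.50, 0.03, -0.68, -0.06 and -0.16 on YEPD arrays 1, 2, 4, 5 and 6. Every YC array exceeded every YEPD array by more than 0.6 units. The difference was 1.33 (SE 0.15, adjusted p = 0.0011), a 2.51-fold higher ratio in YC, and its adjusted p was 0.06 when arrays were averaged in pairs.

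HSP26, a small heat shock protein gene, rose in both media. It stood at 0.71, 1.14, 1.05, 0.81, 1.21 and 0.86 on YC arrays 1 to 6, against 0.31, 0.44, 0.49, 0.15, 0.29 and 0.17 on YEPD arrays 1 to 6. The groups did not overlap (difference 0.66, SE 0.088, adjusted p = 0.0031). STF2, a hydrophilin gene linked to drought tolerance, stood at 0.53, 0.67, 0.44, 0.34, 0.62 and 0.33 on YC arrays 1 to 6, against 0.09, 0.18, -0.01, -0.27, -0.15 and -0.41 on YEPD arrays 1 to 6 (difference 0.59, SE 0.074, adjusted p = 0.0021). In YEPD, arrays 4 to 6 were all below arrays 1 to 3.

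Of 29 general stress genes, 9 were higher in YC, 1 was lower and 19 were not called, with a median difference of 0.29. Besides HSP12 and STF2, the higher ones were RTC3 (0.62), MSC1 (0.54), FMP16 (0.51), the catalase gene CTT1 (0.50), the nicotinamidase gene PNC1 (0.36), RTN2 (0.36) and UIP4 (0.29). The media overlapped for FMP16, CTT1 and PNC1. CTT1 was close to the threshold in limma (SE 0.14, adjusted p = 0.044) and missed it with the random block (adjusted p = 0.053). The lower one was TKL2, a transketolase gene (-0.22, adjusted p = 0.021). The median over the stress list was 0.02 and 0.10 on YC arrays 1 and 4, 0.55 and 0.52 on YC arrays 2 and 5, and 0.30 and 0.27 on YC arrays 3 and 6, against -0.072 to 0.072 on the YEPD arrays. Ribosome biogenesis genes ran the other way over the same arrays, with medians of 0.19 and 0.23, -0.19 and -0.20, and -0.041 and -0.047, against -0.081 to 0.0063 on the YEPD arrays. Of 78 of them, 0 were higher in YC and NOP1, encoding fibrillarin, was lower (-0.20, adjusted p = 0.035). The part of this array pattern in the stress result was not tested. RTC3 shows it in 1 gene, with 0.13 and 0.32 on YC arrays 1 and 4, 0.90 and 1.10 on arrays 2 and 5, and 0.64 and 0.56 on arrays 3 and 6.

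Chaperone genes under Hsf1 were higher in YC for 6 of 30, with 0 lower and 24 not called, and their median difference was 0.11. SSA4, the inducible cytosolic Hsp70 gene, stood at 0.50, 0.53, 0.56, 0.44, 0.56 and 0.59 on YC arrays 1 to 6, against -0.02, -0.08, -0.01, 0.31, 0.23 and 0.34 on YEPD arrays 1 to 6. The YC arrays were tightly grouped above all YEPD arrays (difference 0.40, SE 0.06, adjusted p = 0.0042), from 0.44 to 0.59. HSP42, a small heat shock gene (0.40), SBA1 and CPR6, for partners of Hsp90 (0.28 and 0.22), and BTN2, for sorting of misfolded proteins (0.24), were the others besides HSP26. Of 19 trehalose and glycogen genes, NTH1, the neutral trehalase gene, was higher (0.22, adjusted p = 0.039) and 18 were not called.

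**Figure D3:**
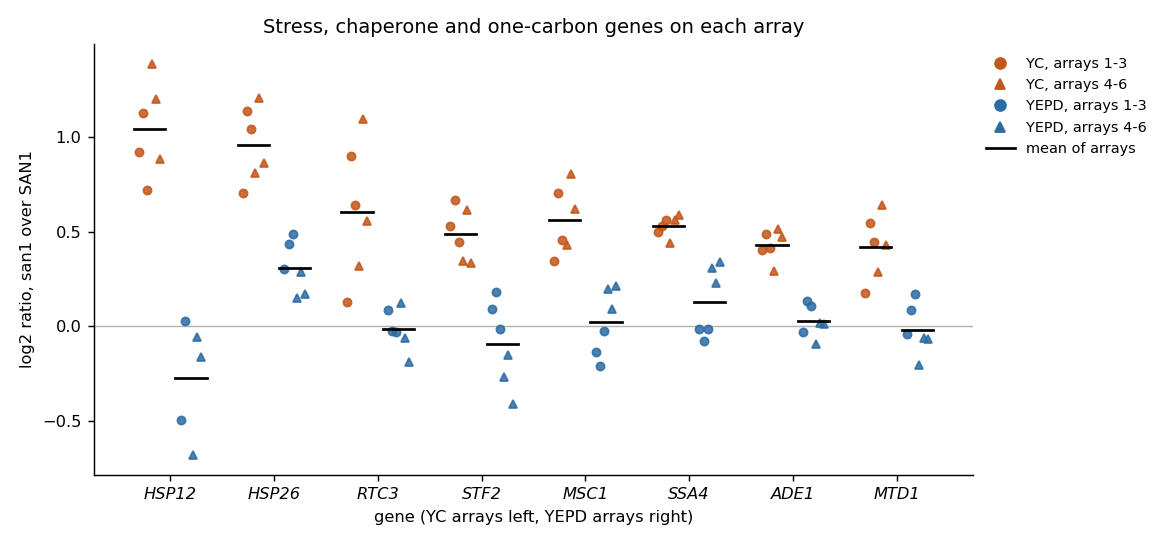
Log2 ratio of san1 over SAN1 (vertical axis) on each array for 6 stress and chaperone genes and 2 genes of purine and one-carbon metabolism, with YC arrays left and YEPD arrays right of each gene name, arrays 1 to 3 as circles, arrays 4 to 6 as triangles and the mean of the arrays as a bar. All 8 genes lie higher in YC without overlap, RTC3 only just, with 0.126 on YC array 1 against 0.122 on YEPD array 4. RTC3 spreads from 0.13 to 1.10 in YC, SSA4 only from 0.44 to 0.59.

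The purine and one-carbon list held calls in both directions. Of 18 genes, 4 were higher in YC, 3 lower and 11 were not called. Among the last were the purine pathway genes ADE4, ADE8, ADE12, ADE16 and ADE17, the one-carbon gene ADE3 and the IMP dehydrogenase gene IMD4. ADE1, an enzyme gene of the purine pathway up to IMP, stood at 0.40, 0.49, 0.41, 0.30, 0.52 and 0.47 on YC arrays 1 to 6, against -0.03, 0.14, 0.11, -0.09, 0.02 and 0.01 on YEPD arrays 1 to 6. The media were apart (difference 0.41, SE 0.05, adjusted p = 0.0019). MTD1, a folate dehydrogenase gene (0.44, adjusted p = 0.01), GCV1, of the glycine cleavage system (0.32, adjusted p = 0.013), and ADE13 (0.19, adjusted p = 0.026) were higher too. The 3 lower genes all act between IMP and GMP. They were GUA1, for GMP synthase (-0.22, adjusted p = 0.03), and the close copies IMD3 and IMD2, for IMP dehydrogenase (-0.17 each, adjusted p = 0.034 and 0.031).

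Proteasome genes were higher in YC for 14 of 45, with 0 lower and 31 not called, and their median difference was 0.15. The list's median lay between 0.059 and 0.19 on the YC arrays and between -0.11 and 0.055 on the YEPD arrays, with no overlap. RPN5, a lid subunit gene, stood at 0.38, 0.20, 0.36, 0.29, 0.19 and 0.25 on YC arrays 1 to 6, against -0.10, 0.09, -0.04, -0.07, -0.07 and -0.03 on YEPD arrays 1 to 6 (difference 0.32, SE 0.046, adjusted p = 0.004). By part of the particle, the called genes were RPN5, RPN7, RPN8 and SEM1 of the lid (0.20 to 0.47), the ATPase genes RPT2, RPT3, RPT4, RPT5 and RPT6 of the base (0.15 to 0.24), PRE1, PRE2, PRE5 and PRE10 of the core (0.16 to 0.22), and UBP6, the deubiquitinase bound to the base (0.25). RPN8 stood at 0.35 in YC and 0.0015 in YEPD (adjusted p = 0.012), but its arrays overlapped. Among 20 quality-control ligases, their conjugating enzymes and Cdc48 partners, UBC1 (0.23, adjusted p = 0.032) and UFD1 (0.20, adjusted p = 0.029) were higher, SSM4, a ligase of the ER membrane, was lower (-0.21, adjusted p = 0.041) and 17 were not called.

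Mitochondrial ribosomal protein genes were higher in YC for 15 of 71, with 0 lower and 56 not called (median difference 0.12). The largest differences were those of RSM18 (0.34, SE 0.069, adjusted p = 0.014), MRPS17 (0.31, SE 0.082, adjusted p = 0.035) and MRPL31 (0.31, SE 0.075, adjusted p = 0.028). On the YEPD arrays the list's median followed orientation, at -0.029, 0.12 and 0.036 on arrays 1 to 3 and at -0.15, -0.038 and -0.11 on arrays 4 to 6. It lay between -0.016 and 0.18 on the YC arrays, so the media overlapped. For cytosolic ribosomal protein genes, many of them near-identical pairs, 6 of 136 were higher, 3 lower and 127 not called.

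The mating-type cassettes of chromosome III were singled out after their values were seen. YCR097W-A, a reading frame beside HMRA1 by its systematic name, was among the 15 largest differences upward (0.46, SE 0.081, adjusted p = 0.0086). MATALPHA2 stood at 0.23, 0.26, 0.38, 0.46, 0.38 and 0.16 on YC arrays 1 to 6, against -0.06, 0.07, 0.08, -0.29, -0.12 and -0.19 on YEPD arrays 1 to 6 (difference 0.40, SE 0.068, adjusted p = 0.0076). HMRA1 (0.38, adjusted p = 0.014), HMRA2 (0.31, adjusted p = 0.0087) and HMLALPHA2 (0.24, adjusted p = 0.026) were higher as well. The cassettes share parts of their sequence, so cross-hybridization is possible and the 4 genes are not independent. In YEPD, arrays 4 to 6 lay below arrays 1 to 3 for MATALPHA2, and both media have 3 values of each orientation in its means. HO, the endonuclease gene of mating-type switching, was higher in YC too (0.28, SE 0.06, adjusted p = 0.018). Of genes used by 1 mating type, SAG1, the alpha-agglutinin gene (-0.21, adjusted p = 0.035), and BAR1, the alpha-factor protease gene (-0.14, adjusted p = 0.044), were lower in YC, and the receptor genes STE2 (-0.10, adjusted p = 0.29) and STE3 (-0.15, adjusted p = 0.14) were not called. The 18 listed silencing and telomere factors, SIR2, SIR3 and SIR4 among them, gave 0 calls in limma, with 2 at an unadjusted p under 0.05. For the SIR genes the differences were -0.13 (SIR2, SE 0.049), 0.06 (SIR3, SE 0.054) and -0.03 (SIR4, SE 0.06).

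AAP1 and POP7 had opposite signs in the media, each called in both. AAP1, an aminopeptidase gene, stood at -0.26, -0.14, -0.11, -0.23, -0.14 and 0.04 on YC arrays 1 to 6, against 0.18, 0.15, 0.24, 0.23, 0.21 and 0.20 on YEPD arrays 1 to 6 (difference -0.34, SE 0.049, adjusted p = 0.0034). Only YC array 6 broke the sign in YC, and the media did not overlap. POP7, for a subunit of RNase P and RNase MRP, stood at 0.07, 0.22, 0.12, 0.15 and 0.12 on YC arrays 2 to 6, against -0.15, -0.03, -0.10, -0.24, -0.11 and -0.18 on YEPD arrays 1 to 6 (difference 0.28, SE 0.046, adjusted p = 0.0076). YHB1, the flavohemoglobin gene, rose in both media and more in YC, where it stood at 0.57 to 0.79, against 0.35 to 0.48 in YEPD (difference 0.27, SE 0.048, adjusted p = 0.0086).

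Other groups gave few or no calls for the difference. The 7 helicase genes of the subtelomeric Y' elements, close copies of each other, all rose in each medium and gave 0 calls for the difference in limma, with 1 at an unadjusted p under 0.05. Their differences ran from 0.0061 (YRF1-5) to 0.13 (YRF1-6, SE 0.039, adjusted p = 0.052), and the list's median was 0.23 to 0.35 on the YC arrays and 0.13 to 0.28 on the YEPD arrays. Of 25 ergosterol synthesis genes, 14 rose and 5 fell in YC, and 8 rose and 1 fell in YEPD. The effect differed between media for 3, all higher in YC. These were IDI1 (0.29, adjusted p = 0.016), ERG20 (0.23, adjusted p = 0.013) and ERG6 (0.22, adjusted p = 0.0084). The median difference of the list was -0.03. For 18 glycolysis genes, 15 hexose transporters and sensors, 12 COS family genes and 6 common marker genes the count was 0 in limma, with 4, 3, 1 and 0 at an unadjusted p under 0.05. As a share of their tested members, called genes made up 38.9% of the purine list, 34.5% of the stress list, 33.3% of the amino acid permeases, 31.8% of the phosphate list, 31.1% of the proteasome list, 29.0% of the methionine list, 21.4% of the zinc list, 21.1% of the mitochondrial ribosome list, 20% of the chaperone list and 18.2% of the iron list, beside 9.78% of all genes tested. For the ergosterol list (12%), the copper handling list (11.1%), the lipid list (10.3%) and the amino acid synthesis list (7.14%) the share was near that of all genes. It was 15% for quality-control ligases and partners and 6.62% for cytosolic ribosomal proteins. Trehalose and glycogen genes stood at 5.26% and ribosome biogenesis genes at 1.28%. Of 22 seripauperin genes, which are close copies, 4 were lower in YC (18.2%, beside 9.78% of all genes tested). The list's median lay between -0.18 and -0.036 on the YC arrays and between 0.016 and 0.12 on the YEPD arrays.

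**Figure D4:**
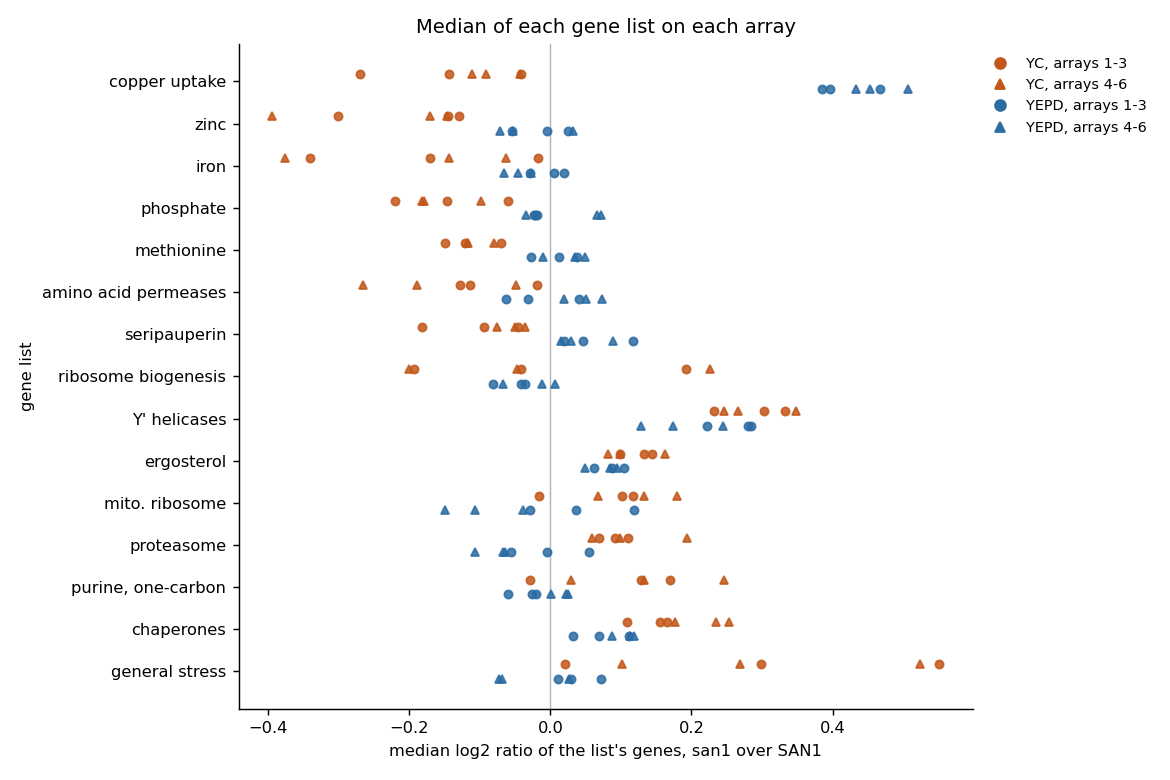
Median log2 ratio of san1 over SAN1 (horizontal axis) of the genes of 15 lists, with a mark for each array, YC above YEPD within each list, arrays 1 to 3 as circles and arrays 4 to 6 as triangles. The media do not overlap for copper uptake, zinc, phosphate, methionine, seripauperin and proteasome genes; the general stress and ribosome biogenesis medians spread widely over the YC arrays.

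Many calls within the lists were lost in at least 1 of the fits with a single array left out. The called members that were called whichever of the 12 arrays was left out were FRE7, CTR1, FRE1 and IRC7 (4 of 4) for copper uptake, FRE4 (1 of 4) for iron and 0 of 3 for zinc. They were PHO89, PHO90 and PHM8 (3 of 7) for phosphate, MMP1, MUP1 and SAM3 (3 of 9) for methionine and TAT1 (1 of 5) for amino acid permeases. Among lists with higher members in YC, they were HSP12, STF2, MSC1, RTN2 and UIP4 (5 of 10) for general stress, HSP26 and SSA4 (2 of 6) for chaperones and ADE1, MTD1 and GCV1 (3 of 7) for purine genes. They were RPN5, RPN8 and RPT2 (3 of 14) for the proteasome, RSM18 and MRPS16 (2 of 15) for the mitochondrial ribosome, 3 of 3 for ergosterol and 0 of 3 for quality-control ligases and partners. RTC3 and SEM1 lost the call without YEPD array 6 only, and PNC1 without YEPD array 4 only. FET4 kept it without YC array 2 only. With arrays n and n plus 3 as a random block (estimated correlation 0.116), all 4 copper uptake calls held, against 2 of 4 for iron and 0 of 3 for zinc. Of the other lists, 6 of 7 phosphate calls held, 5 of 9 for methionine, 3 of 5 for amino acid permeases, 9 of 10 for general stress, 5 of 6 for chaperones, 6 of 7 for purine genes, 9 of 14 for the proteasome, 6 of 15 for the mitochondrial ribosome and 1 of 4 for seripauperin genes. SAG1, BAR1, NOP1, SSM4 and NTH1 also lost the call.

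Called genes differed in length by direction. The median coding length in the RefSeq table of assembly R64 was 796.5 bases for the genes called higher in YC (312 of 324 with a length), 1396.5 bases for those called lower (228 of 252) and 1254 bases for genes not called. Of 98 genes of up to 300 bases, 12.2% were called higher and 0 lower. Of 739 genes over 2500 bases, 0.81% were called higher and 3.65% lower. The median ratio of the shortest genes was between -0.088 and 0.15 on the YC arrays, and on YEPD arrays 1 to 6 it was 0.015, 0.21, 0.046, -0.24, -0.11 and -0.22, so it changed sign with the orientation in YEPD. Taking a smooth curve over coding length out of every array left 799 called genes, 413 higher and 386 lower in YC, of which 527 were among the 576. The shares of called genes per list were set beside genes of all lengths, and the part of coding length in them was not tested.

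**Figure D5:**
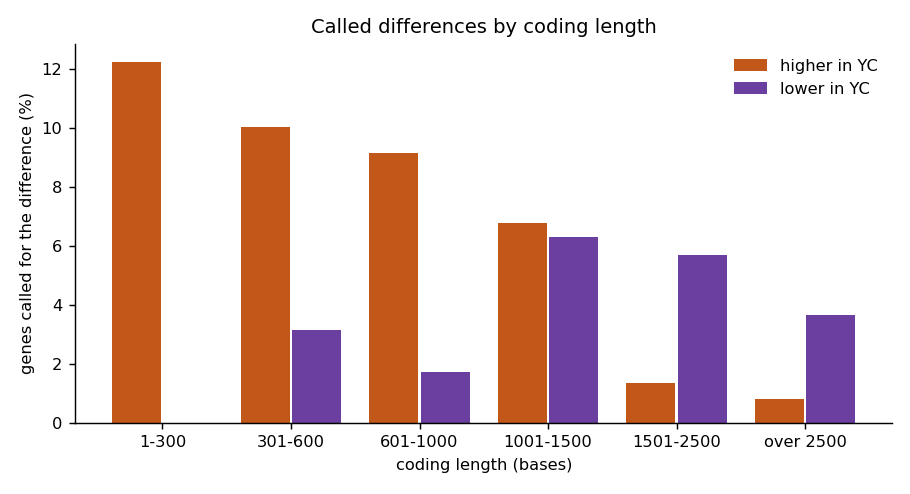
Share of genes called higher (left bars) and lower (right bars) in YC than in YEPD, in percent (vertical axis), by coding length in bases (horizontal axis). The share called higher falls over the bins, from 12.2% at up to 300 bases to 0.81% over 2500 bases.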

How the data were processed

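The analysis began from the authors' deposited table, which holds 1 log ratio per spot and array, taken as log2. How the arrays were scanned, background-corrected and normalized, and the log base, are not stated in the labels used here. Rows were named through the RefSeq gene table (5704 of 6204 by locus tag, 42 by synonym, 458 kept the file's name), and the rows of 27 genes were averaged. Arrays were median-centred (deposited medians -0.0029 to 0.0033), and arrays 4 to 6 negated. The 287 genes with fewer than 2 values in an orientation of a medium were left out, and empty cells were not imputed.

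A mean per medium and 1 dye term were fitted per gene with limma 3.58.1 in R 4.3.3 (prior degrees of freedom 3.76, residual 9 for a complete gene). Tests were two-sided, adjusted by Benjamini-Hochberg over 5890 genes and called at 0.05. The number of arrays limits the precision. The fit was also run on simulated data with independent noise on each array and 1 dye term. That setting cannot show how calls behave where arrays deviate together in pairs.

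The 40 gene lists and the members described were chosen with earlier results of these data known, so counts per list are descriptions. The rule for named genes took SAN1, the 15 largest called differences each way, called genes with opposite signs in both media, up to 4 called members of each list, and all members of the copper uptake, neighbour and marker lists. Other genes are named as members of a count. Alternatives covered centring, scaling, the dye term, blocks, array weights, subsets of arrays, filters, the variance model, a size threshold and each array left out. Removing a length curve, and averaging pairs without YC arrays 2 and 5, were chosen after seeing the data. Equal numbers did not pair arrays across media (correlations of deviations -0.34 to 0.23). Promoter sequences were not analysed here.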

Additional observations from a re-analysis of the deposited data

Results flagged for a closer look

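The san1 effect differed between YC and YEPD, by the test of the difference itself, for 324 genes that were higher and 252 that were lower in YC. Within these, 5 genes were called in both media with opposite signs, with differences of -1.14 for FRE7, -0.78 for CTR1, -0.76 for FRE1, -0.34 for AAP1 and 0.28 for POP7.

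Single arrays stood apart from the other arrays of their medium in 5 of 210 groups tested, and chance flags about 1 group in 20. SBA1 was at 0.53 on YC array 4, against 0.19 to 0.28 on the other YC arrays. SUN4, a cell wall protein gene, was at -0.40 on YC array 4, against -0.23 to -0.16, and at -0.17 on YEPD array 5, against -0.0498 to -0.0062. UBC1 was at -0.011 on YC array 2, against 0.16 to 0.26. RPN5 was at 0.093 on YEPD array 2, against -0.10 to -0.031.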

How the results depend on the processing

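Among 102 named called genes and 34 alternatives, a difference stayed past the threshold in 2351 cases, lost it in 1095 and changed sign in 0. These genes were named because they were called, and most alternatives reuse the same arrays, so kept signs are no independent support. Averaging arrays in pairs took the call from 98 of them, and using arrays 1 to 3 only took it from 99. The number of called genes (576, of which 324 higher and 252 lower) moved too. It was 244 (164 higher, 80 lower) with no dye term and 769 (418 higher, 351 lower) with a dye term for each medium. With arrays n and n plus 3 as a random block the number was 359 (217 higher, 142 lower). Averaging YEPD arrays 4 and 6 gave 201 (130 higher, 71 lower), and array weights gave 1482 (726 higher, 756 lower). In arrays 1 to 3 only the number was 6 (2 higher, 4 lower), and in arrays 4 to 6 only 531 (370 higher, 161 lower). It was 62 (43 higher, 19 lower) without YC arrays 3 and 6, 785 without YC arrays 1 to 3, whose descriptions name YEPD, and 799 (413 higher, 386 lower) with the length curve removed. With the array number as a replicate block, 49 genes were called (29 higher, 20 lower). The numbers are shared between media in the labels, but only array 6 correlated best with its own number. With arrays averaged in pairs it was 3 (0 higher, 3 lower), and 2 (0 higher, 2 lower) when YC arrays 2 and 5 were also left out, where fewer samples enter the fit. A difference of at least 1.5-fold kept 8 (4 higher, 4 lower) by construction. Leaving out 1 array gave 169 to 800 in all, 110 to 465 higher and 59 to 335 lower. The lowest counts were 169 without YEPD array 4, 199 without YEPD array 6, 204 without YEPD array 1 and 256 without YC array 6. Apart from the size threshold, which acts by construction, the cause of these moves was not tested.

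The difference of SAN1, which was not called, changed sign to -0.0058 with YEPD arrays 4 and 6 averaged, to -0.47 in arrays 1 to 3 only and to -0.22 without YC arrays 3 and 6, and lay between -0.13 and 0.15 with 1 array left out.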
